A study of Mus musculus with 18 samples.

Results

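Serpins are a family of proteins that share one fold, and most of them inhibit serine proteases. The serpin genes of this data set were taken as every entry whose symbol is Serpin followed by a clade letter from a to i and a number. This choice used names alone, and it gave 63 of 23626 entries. All levels are given as TPM, a measure of transcript abundance that corrects for transcript length and sums to 1000000 in each library. The deposited values were taken as TPM from their column sums. RNA was measured in 18 libraries of mouse thyroid cells sorted for yellow fluorescent protein (YFP), labelled as thyrocytes from untreated mice at 20 weeks. Of these, 4 came from tumours with BrafV600E alone (Braf tumours), 7 from tumours with BrafV600E and Tert-123C>T (Tert-123 tumours), and 4 from tumours with BrafV600E and K5-Tert (K5-Tert tumours). BrafV600E locks the kinase Braf in its active state, Tert-123C>T is a change in the promoter of the telomerase gene Tert, and K5 stands for keratin 5, whose promoter is active in basal epithelial cells. The other 3 libraries were single pools of samples without the Braf mutation, from wild-type, Tert-123C>T and K5-Tert mice. The labels give thyroid tumour as the source of these pools too, although they carry no Braf mutation; tumour here means a library with BrafV600E. The labels do not give the driver of the Braf allele or of YFP, the strain, the sex, or the number of mice in a pool. They do not say whether replicates were separate mice, so the p-values measure only the spread between these samples. The study asks what raised Tert does to thyroid tumours driven by the Braf mutation.

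Tert was read in every group as a check of the labels. It stood at 4.59 TPM ± 0.603 (SD, n = 4) in Braf tumours, 5.18 ± 1.34 (n = 7) in Tert-123 tumours and 39.3 ± 29.4 (n = 4) in K5-Tert tumours, and it was 125, 8.79 and 2.15 TPM in the K5-Tert, the Tert-123C>T and the wild-type pool. The 4 K5-Tert tumours were above every Braf tumour, while the Tert-123 tumours overlapped the Braf tumours, so Tert checks the K5-Tert label alone. Braf itself was between 2.40 and 9.03 TPM in tumours and between 8.68 and 15.8 TPM in pools. The number of genes at 1 TPM or more ranged from 10958 to 15045, and the RNA part of ribonuclease P, Rpph1, held 43.7% to 68.8% of the TPM. The noncoding nuclear RNA Malat1 was at 1191, 1908 and 1050 TPM in K5-Tert tumours 2, 3 and 4 and at 5072 TPM or more in each other tumour. The summed TPM of 8 thyrocyte markers was 294 to 1093 in tumours, against 31876, 26399 and 32504 in the K5-Tert, the Tert-123C>T and the wild-type pool. Thyroglobulin (Tg), the precursor of thyroid hormone, fell within 81.9 to 511 TPM in tumours and within 25676 to 31240 TPM in pools, so it was low but present under the thyrocyte label in tumours.

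A serpin traps its target by offering a flexible loop as bait. When the protease cuts the loop, the serpin changes shape and holds the enzyme as an inactive covalent complex. Clade letters reflect sequence relatedness: clade A holds secreted plasma proteins such as alpha-1-antitrypsin, clade B holds serpins that act mostly inside cells, clade E holds inhibitors of plasminogen activators and thrombin, and Serpinh1 of clade H is a collagen chaperone that inhibits no protease. Serpinf1 (pigment epithelium-derived factor, PEDF) is a secreted protein known for restraining blood vessel growth and is not an inhibitor either. In the thyroid, Serpina7 encodes thyroxine-binding globulin, which is made mainly by the liver.

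Only Serpinf1 and Serpine2 passed the test in a comparison. Their promoters are shown for that reason, and the pair differs in base composition. Each sequence is the 250 bases before the start site, from RefSeq on build GRCm38.p6, minus strand, written 5′ to 3′, with matches to the motifs below in capitals. Serpinf1 lies at chr11:75422624-75422873 and Serpine2 at chr1:79858666-79858915.
Serpinf1: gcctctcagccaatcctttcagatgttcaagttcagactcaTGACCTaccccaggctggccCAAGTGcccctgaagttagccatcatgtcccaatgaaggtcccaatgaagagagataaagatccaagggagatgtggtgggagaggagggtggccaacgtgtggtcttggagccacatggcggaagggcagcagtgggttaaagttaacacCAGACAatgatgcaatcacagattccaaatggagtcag
Serpine2: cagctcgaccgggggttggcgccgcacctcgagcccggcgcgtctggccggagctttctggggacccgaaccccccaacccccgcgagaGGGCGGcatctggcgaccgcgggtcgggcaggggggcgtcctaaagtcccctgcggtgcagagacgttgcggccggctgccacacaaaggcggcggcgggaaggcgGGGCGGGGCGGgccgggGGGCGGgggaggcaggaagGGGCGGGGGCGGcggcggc
The Serpine2 window was 78.8% G and C with 34 CpG pairs, and 2.97% of all promoters in the table held more. The Serpinf1 window was 51.6% G and C with 2 CpG pairs, and 71.0% of promoters held more, beside medians of 52.4% and 6.0 over all promoters. Both strands were searched for 7 motifs, and the shares of 32851 promoters with a match follow each. GGGCGG, the GC box (32.7%), matched 6 times in Serpine2, some of them overlapping, at 161, 55, 50, 38, 19 and 13 bases before the start, and was absent from the Serpinf1 window. In Serpinf1, AGGTCA (14.0%), an element of nuclear receptors read here as TGACCT, lay 209 bases before the start. CAAGTG (11.6%), the core bound by the thyroid and lung factor Nkx2-1, lay 189 bases before it, and CAGACA (17.1%), a SMAD element, 38 bases before it. The letters TGANTCA (AP-1, 6.75%), CCGGAA (ETS, 12%) and TATAAA (12.4%) were in neither window. A match describes letters and says nothing of binding.

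Few serpins carried most of the family's RNA. Of the 63, 8 reached 10 TPM in at least 4 libraries and could be tested, and these 8 held 89.8% to 96.9% of the summed serpin TPM of a library. The ones described here are Serpinf1, Serpinb6a, Serpinh1, Serpine2, Serping1, Serpinb9 and Serpinb6b. By clade, 3 of the 27 entries of clade B passed, 1 of 2 in clade F, the single entries of clades G and H, and 0 of 25 in clade A, whose highest level was 23.7 TPM for Serpina3n. The single entries of clades C and D and the 2 of clade I did not pass. Of the 55 below this limit, 34 reached 1 TPM in some library and 21 never did, and no serpin was listed at 0 in all 18 libraries.

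**Figure D1:**
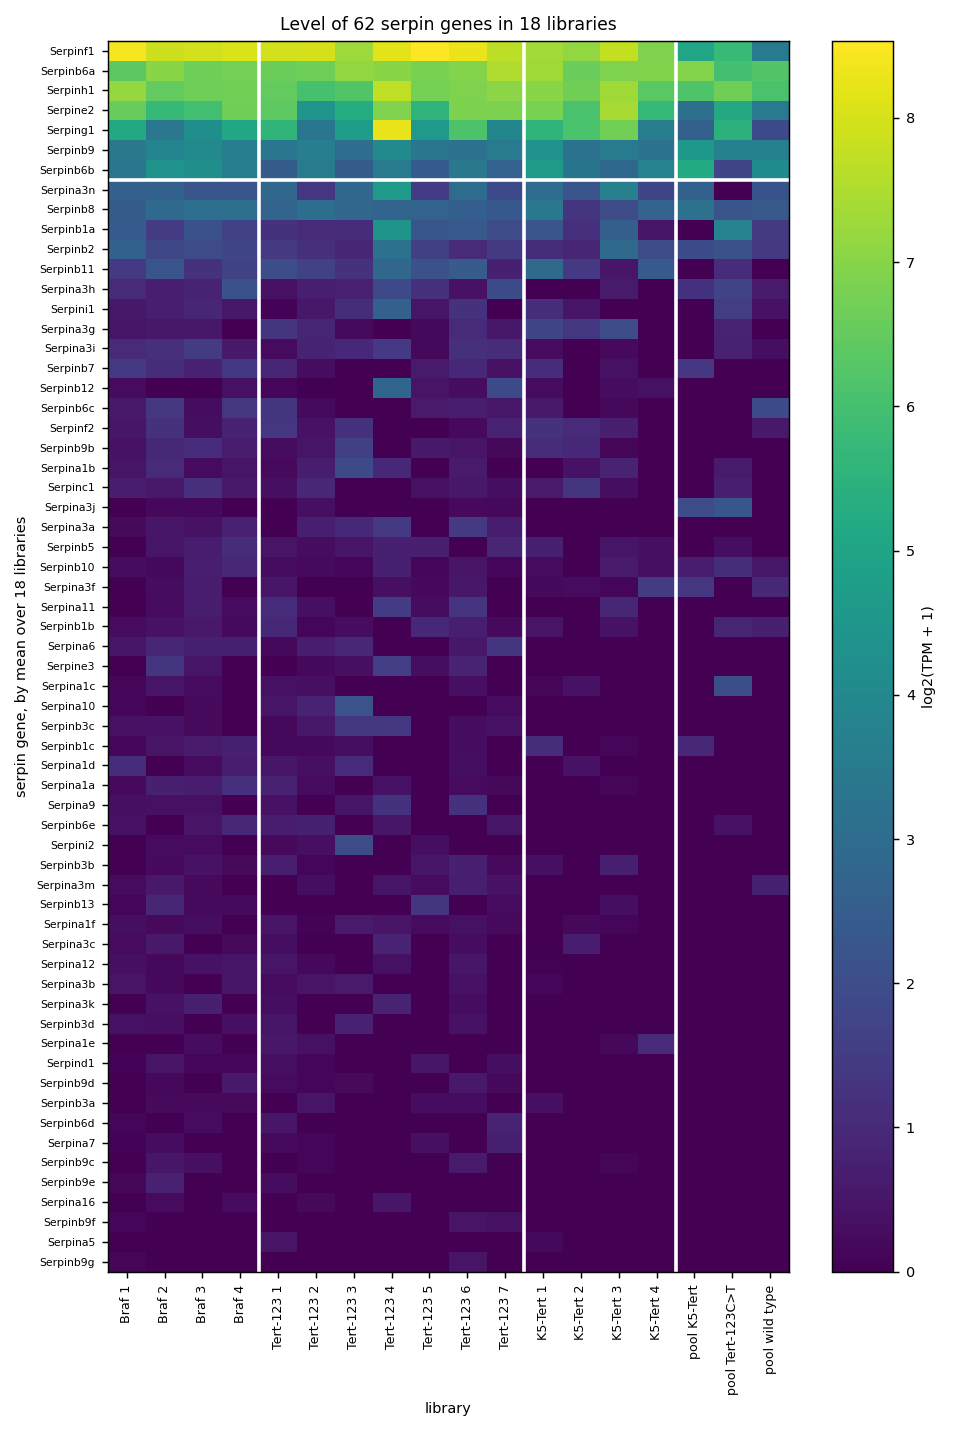
Colour shows log2(TPM + 1) of 62 serpin genes (rows, ordered by mean over all libraries) in the 18 libraries (columns); the white line separates 7 tested genes from the 55 below the limit. The top rows are bright in every tumour, and Serpinf1, the first row, is darker in the 3 pools, where it was at 31.9, 52.4 and 10.3 TPM.

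Summed over the family, serpin RNA came to 659 TPM ± 75.7 (SD, n = 4) in Braf tumours, 722 ± 246 (n = 7) in Tert-123 tumours and 631 ± 188 (n = 4) in K5-Tert tumours. The pools had sums between 216 and 368 TPM, below the lowest tumour at 434 TPM. These sums hold Serpinf1, at 118 to 370 TPM in tumours and 10.3 to 52.4 TPM in pools. They do not show a rise across the family. Composition differed as well. Serpinf1 led in 13 of the 15 tumours and made up 22.7% to 52.0% of serpin TPM across tumours, and it made up 9.57%, 14.2% and 4.78% in the K5-Tert, the Tert-123C>T and the wild-type pool. The 2 other tumours were led by Serping1 (Tert-123 tumour 4, 25.3%) and by Serpinb6a (K5-Tert tumour 4, 27.9%). Serpinb6a led in the K5-Tert and wild-type pools at 37.2% and 34.6%, and Serpinh1 in the Tert-123C>T pool at 27.9%. A secreted factor was thus the most abundant serpin RNA in most tumours, and an intracellular inhibitor in 2 of the 3 pools.

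Among the secreted serpins, Serpinf1 was at 338, 236, 247 and 262 TPM in Braf tumours, at 248, 251, 154, 288, 370, 314 and 203 TPM in Tert-123 tumours, and at 161, 140, 217 and 118 TPM in K5-Tert tumours. All 15 tumours were above all 3 pools, and all 4 K5-Tert tumours were below every Braf tumour. Of the K5-Tert tumours, 2 lay below every Tert-123 tumour, so those groups overlapped. The mean over tumours was 236 TPM and that over pools 31.5 TPM, a ratio of 7.5.

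Serpine2 (protease nexin-1) inhibits thrombin, urokinase and tissue plasminogen activator at the cell surface. It was at 92.3, 51.8, 60.8 and 103 TPM in Braf tumours, at 84.1, 20.7, 37.9, 116, 46.1, 115 and 114 TPM in Tert-123 tumours, and at 113, 67.0, 171 and 51.4 TPM in K5-Tert tumours. The K5-Tert, the Tert-123C>T and the wild-type pool had 7.97, 34.9 and 10.3 TPM. Every tumour but Tert-123 tumour 2 was above all 3 pools, the 3 tumour groups overlapped, and the mean over tumours was 4.67 times that over pools.

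Serping1 (C1 inhibitor) blocks the complement proteases C1r and C1s and plasma kallikrein. It varied most of the tested serpins: its levels were 35.2, 9.5, 18.1 and 34.0 TPM in Braf tumours, 46.9, 9.23, 26.5, 306, 23.1, 70.1 and 14.0 TPM in Tert-123 tumours, and 47.4, 68.1, 105 and 11.6 TPM in K5-Tert tumours. The highest tumour, Tert-123 tumour 4, was 33.2 times the lowest. Among the pools, the K5-Tert and wild-type libraries had 5.19 and 2.82 TPM and the Tert-123C>T library 44.1 TPM, so only 6 of the 15 tumours were above every pool.

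Serpinh1 (HSP47) resides in the endoplasmic reticulum and helps procollagen fold. Its levels were 144, 88.0, 99.3 and 104 TPM in Braf tumours, 89.5, 65.9, 73.4, 210, 107, 117 and 131 TPM in Tert-123 tumours, and 128, 101, 159 and 79.8 TPM in K5-Tert tumours. With 72.2, 103 and 66.6 TPM, the pools overlapped the tumours, and the ratio of means was 1.41.

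Serpinb6a, an intracellular inhibitor of cathepsin G and trypsin-like proteases, was the steadiest of the 3 tested clade B genes relative to its level. It was at 82.1, 129, 100.0 and 106 TPM in Braf tumours, between 98.3 and 184 TPM in Tert-123 tumours (127 ± 29.8, SD, n = 7), and at 159, 95.8, 116 and 121 TPM in K5-Tert tumours. The K5-Tert pool at 124 TPM lay among the tumours, while the Tert-123C>T and wild-type pools had 62.6 and 74.6 TPM, below every tumour. Serpinb9, an inhibitor of granzyme B, averaged 12.6 TPM ± 2.49 (SD, n = 4) in Braf tumours, 10.3 ± 2.88 (n = 7) in Tert-123 tumours and 11.8 ± 5.44 (n = 4) in K5-Tert tumours, with pools at 22.3, 12.4 and 12.4 TPM. Serpinb6b averaged 14.7 ± 5.06, 7.15 ± 2.90 and 13.1 ± 8.00 TPM in the same tumour groups, and the pools spread from 2.42 TPM (Tert-123C>T) to 36.6 TPM (K5-Tert). Serpinb6a, Serpinb6b, Serpinb9 and their many mouse paralogs are similar in sequence, so the division of reads among them is uncertain.

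**Figure D2:**
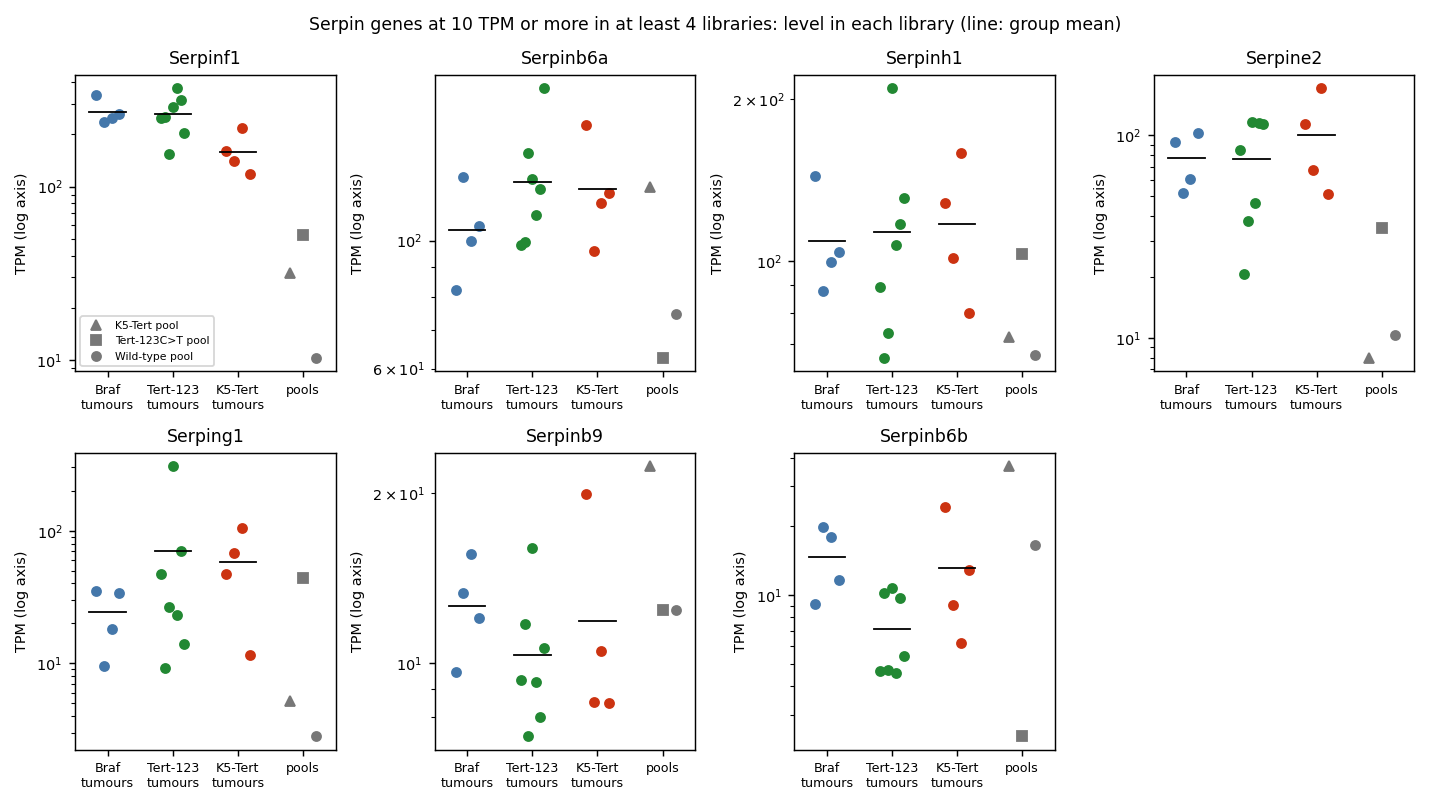
Each panel shows the level of a tested serpin gene in TPM on a log axis; circles are tumours by group, a line marks the group mean, and the separate symbols at the right are the 3 pools. Serpinf1 shows all 15 tumours above the pools and the 4 K5-Tert tumours below the 4 Braf tumours, and Serping1 shows the widest spread, from 9.23 to 306 TPM within tumours.

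Serpinf1 and Serpine2 rose with the Braf mutation. Its effect was estimated from the 18 libraries in a model that also held the Tert alleles, on log2(TPM + 1), the scale of every difference given from here on. The model assumes the same Braf effect with each Tert allele, with 1 pool per allele, and its spread is mainly that between tumours. For Serpinf1 the K5-Tert pool (31.9 TPM) was above the wild-type pool (10.3 TPM), while K5-Tert tumours (mean 159 TPM) were below Braf tumours (mean 271 TPM). The assumption was not tested. Serpinf1 was higher by 3.0 (SE 0.33, 95% interval 2.32 to 3.68, limma adjusted p = 4.093e-07), and Serpine2 by 2.27 (SE 0.47, interval 1.29 to 3.25, adjusted p = 0.0009666). Of the 8 tested serpins, 2 were called higher and 0 lower, beside 15.4% of all 7825 genes called higher and 10% called lower. The median difference was 0.46 over the 8 serpins and 0.07 over all genes tested. None of the other 6 passed: Serping1 differed by 1.67 (SE 0.74, interval 0.13 to 3.21, adjusted p = 0.107), Serpinb6a by 0.48 (adjusted p = 0.1315), Serpinh1 by 0.44 (0.268), Serpinb9 by -0.40 (0.3003) and Serpinb6b by -0.16 (0.8143). Serpinf1 alone of the 8 was higher in every tumour than in every pool, beside 5.71% of all genes so separated upward and 5.69% downward. Serpinf1 and Serpine2 passed in each of the 31 alternatives run, with differences of 2.25 to 4.26 and 1.76 to 3.04.

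The Braf comparison sets 15 tumours against 3 pools whose cell makeup differed in the markers. In bulk RNA, fewer cells of a type and less RNA per cell cannot be told apart. The summed TPM of 6 airway and lung markers was 4683 to 12363 in tumours and 77.2, 13.7 and 8.39 in the K5-Tert, the Tert-123C>T and the wild-type pool; the surfactant genes Sftpb, Sftpd and Sftpa1 made up nearly all of it, while Sftpc and Scgb1a1, which define lung alveolar type II and club cells, reached at most 20.0 and 4.53 TPM. The summed TPM of 8 fibroblast markers was 91.0 to 2477 in tumours and 34.3, 350 and 39.5 in the pools, with 3, 0 and 1 of the markers at 0. That of 10 macrophage markers was 221 to 5215 in tumours and 74.8, 293 and 61.2 in the pools. Other sums leaned the other way. The sum of 8 endothelial markers had a median of 28.7 TPM in Braf tumours, 50.8 in Tert-123 and 61.9 in K5-Tert tumours, and was 90.4, 904 and 332 TPM in the pools, with the K5-Tert pool inside the range of the tumours. That of 4 C cell markers was 2.78 to 42.6 TPM in tumours and 240.0, 2062 and 388 TPM in the pools. That of 3 parathyroid markers was 0.117 to 38.0 TPM in tumours and 32.6, 642 and 30.3 TPM in the pools. The Tert-123C>T pool, with the highest fibroblast and macrophage sums of the 3, also had their highest Serpinf1, Serpine2 and Serping1. Serping1 passed once that pool was left out, at 2.73 (adjusted p = 0.02521), and Serpinb6a without the K5-Tert pool, at 0.73 (adjusted p = 0.03928). The part of these markers in the differences was not tested.

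Within tumours, the 3 with the highest fibroblast sums were Tert-123 tumour 4, K5-Tert tumour 3 and Tert-123 tumour 6, at 2477, 1713 and 903 TPM. The macrophage sums picked out the same 3, at 5215, 3867 and 2316 TPM. These were also the 3 highest tumours for Serping1 and for Serpine2. Of the 3, 2 were among the highest 3 tumours for Serpinh1, 1 for Serpinf1 and Serpinb9, and 0 for Serpinb6a and Serpinb6b. For Serpinf1, the order of the Braf tumours followed their fibroblast sums, from 236 TPM at a sum of 165 TPM to 338 TPM at 707 TPM. That of the K5-Tert tumours did too, from 118 TPM at 216 TPM to 217 TPM at 1713 TPM. The Tert-123 tumours did not keep this order: Tert-123 tumour 2, with the lowest fibroblast sum at 91.0 TPM, had 251 TPM of Serpinf1. The Tert-123C>T pool, with a sum of 350 TPM, had 52.4 TPM of Serpinf1. The macrophage sums of the K5-Tert tumours, at 895, 688, 3867 and 510 TPM, gave the same order as Serpinf1, and those of the Braf tumours did not. These orders were seen after the fact in small groups, and how many other genes keep them was not counted. How far other cells gave rise to serpin RNA was not tested.

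**Figure D3:**
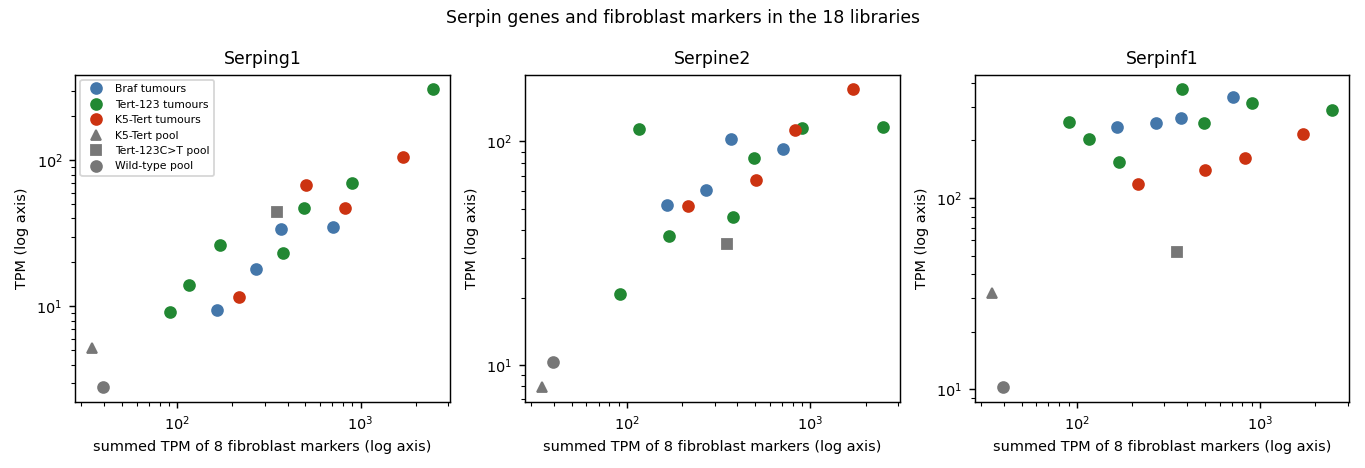
Each point is a library; the horizontal axis is the summed TPM of 8 fibroblast markers and the vertical axis the level of the named serpin in TPM, both on log axes, with colours for tumour groups and separate symbols for the 3 pools. Serping1 and Serpine2 are high in the tumours with the highest marker sums, and Serpinf1 lies between 118 and 370 TPM in tumours whose marker sums run from 91.0 to 2477 TPM. Within Braf and within K5-Tert tumours, Serpinf1 follows the order of the sums, and within Tert-123 tumours it does not.

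In K5-Tert tumours, Serpinf1 was lower than in Braf tumours and no other serpin passed. The means were 159 TPM ± 42.5 (SD, n = 4) and 271 ± 46.3 (n = 4), a difference of -0.79 (SE 0.26, 95% interval -1.34 to -0.24, limma adjusted p = 0.04008). Of the 8 serpins 0 were called higher and 1 lower, beside 0.626% and 21.2% of all genes, so a lower call was common among all genes. The median difference was 0.15 for the serpins and -0.47 for all genes. Groups without overlap were also common downward: Serpinf1 was 1 of the 16.0% of genes lower in all 4 K5-Tert tumours than in all 4 Braf tumours, while 1.14% were higher. Serping1 differed by 1.03 (SE 0.79, interval -0.61 to 2.68, adjusted p = 0.3278). Serpine2 differed by 0.28, Serpinb6a by 0.23, Serpinh1 by 0.08, Serpinb9 by -0.15 and Serpinb6b by -0.25.

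The K5-Tert call for Serpinf1 depended on single libraries and on the scaling. The sample names of the K5-Tert tumours also carry higher numbers than those of every other tumour, so anything that goes with that numbering cannot be told apart from K5-Tert. It was lost when any of the 4 Braf tumours, Tert-123 tumour 2, K5-Tert tumour 2 or K5-Tert tumour 4 was left out, with differences from -0.85 to -0.66 and adjusted p from 0.05028 to 0.1387. Without K5-Tert tumours 2 and 4 together, 2 of the 3 with low Malat1, the difference was -0.52 (adjusted p = 0.4406). Under factors of the TMM type, which moved the median of all genes from -0.47 to 0.10, Serpinf1 differed by -0.17 (adjusted p = 0.7182) and Serpinb6a was called higher, by 0.84 (adjusted p = 0.01143), beside 7.92% of all genes called higher. With the mean of every library taken out together with its slope on transcript length, Serpinf1 differed by -0.40 (adjusted p = 0.3555) and Serpinb6a was called higher, by 0.63 (adjusted p = 0.01938), beside 4.72% of all genes. The sign for Serpinf1 stayed negative in all 28 alternatives, and 13 of them kept the call.

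In Tert-123 tumours, no serpin differed from Braf tumours past the threshold. Here 0 of 8 serpins and 0 of 7825 genes were called in either direction by limma (0% and 0% called), and 51 genes, 1 of them a serpin, had an unadjusted p under 0.05. That serpin was Serpinb6b, which differed by -0.96 (SE 0.33, 95% interval -1.66 to -0.26, unadjusted p = 0.00961, adjusted p = 0.9997). Its level was 4.67, 10.2, 4.73, 10.8, 4.58, 9.68 and 5.41 TPM in Tert-123 tumours and 9.15, 19.9, 17.9 and 11.7 TPM in Braf tumours. Of the Tert-123 tumours, 4 were below every Braf tumour and 3 overlapped them. Serpinf1 differed by -0.09 (interval -0.57 to 0.40), Serpinh1 by -0.01 (-0.59 to 0.56), Serpinb6a by 0.27 (-0.18 to 0.71) and Serping1 by 0.74 (-0.71 to 2.20), and each adjusted p was 0.9997. The serpin median was -0.05 beside 0.00 for all genes.

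Against Tert-123 tumours, Serpinf1 was again the only serpin that passed in K5-Tert tumours. It differed by -0.70 (SE 0.23, 95% interval -1.19 to -0.21, limma adjusted p = 0.03234). Of the 8 serpins 0 were called higher and 1 lower, beside 0.805% and 28.5% of all genes, with medians of 0.21 and -0.47. The 3 comparisons among tumours share their groups in pairs, so they are not independent. Serpinb6b differed by 0.71 (SE 0.33, interval 0.01 to 1.41, adjusted p = 0.1068) and Serpine2 by 0.47 (adjusted p = 0.3873). Serping1 differed by 0.29, Serpinb9 by 0.14, Serpinh1 by 0.10 and Serpinb6a by -0.04. The Serpinf1 call was lost without Tert-123 tumour 5, Tert-123 tumour 6, K5-Tert tumour 2 or K5-Tert tumour 4, with differences from -0.65 to -0.57 and adjusted p from 0.06002 to 0.1394. Leaving out K5-Tert tumour 3 brought Serpinb6b past the threshold at 0.98 (adjusted p = 0.03989). Under factors of the TMM type Serpinf1 differed by -0.06 (adjusted p = 0.8941), the median of all genes was 0.12, and 3 other serpins were called higher: Serpinb6a by 0.60 (adjusted p = 0.02134), Serpinb6b by 1.29 (0.01457) and Serpinb9 by 0.72 (0.01752), beside 10.3% of all genes called higher.

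**Figure D4:**
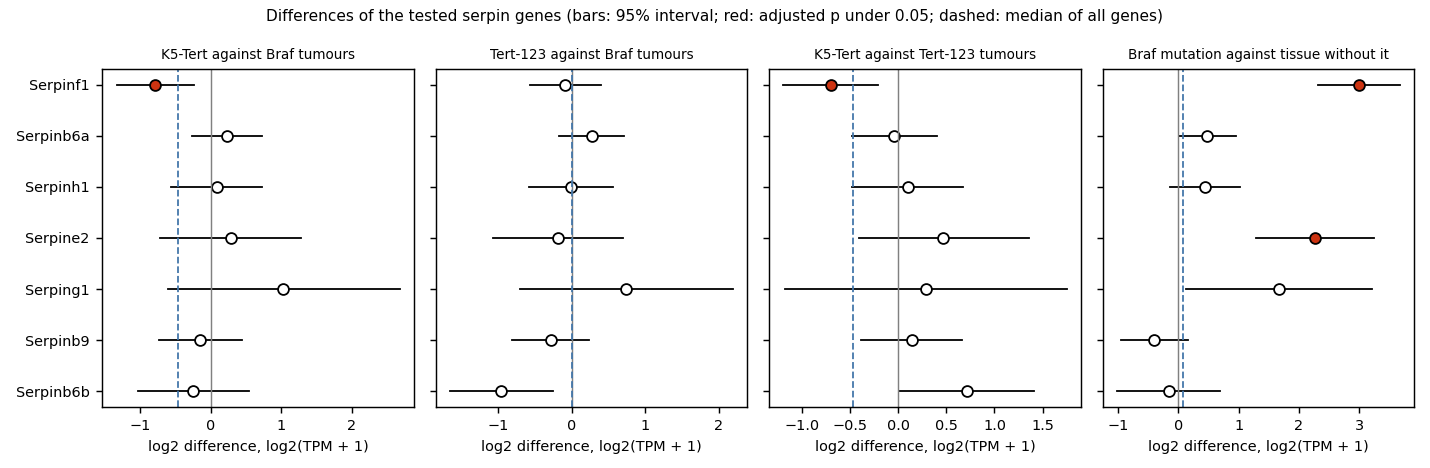
Points are limma differences on log2(TPM + 1) for 7 tested serpins in the 4 comparisons, bars are 95% intervals, red marks an adjusted p under 0.05 and the dashed line is the median of all genes. Serpinf1 is at 3.0 for the Braf mutation and at -0.79 and -0.70 for K5-Tert against Braf and Tert-123 tumours, and no point is red for Tert-123 against Braf tumours.

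**Figure D5:**
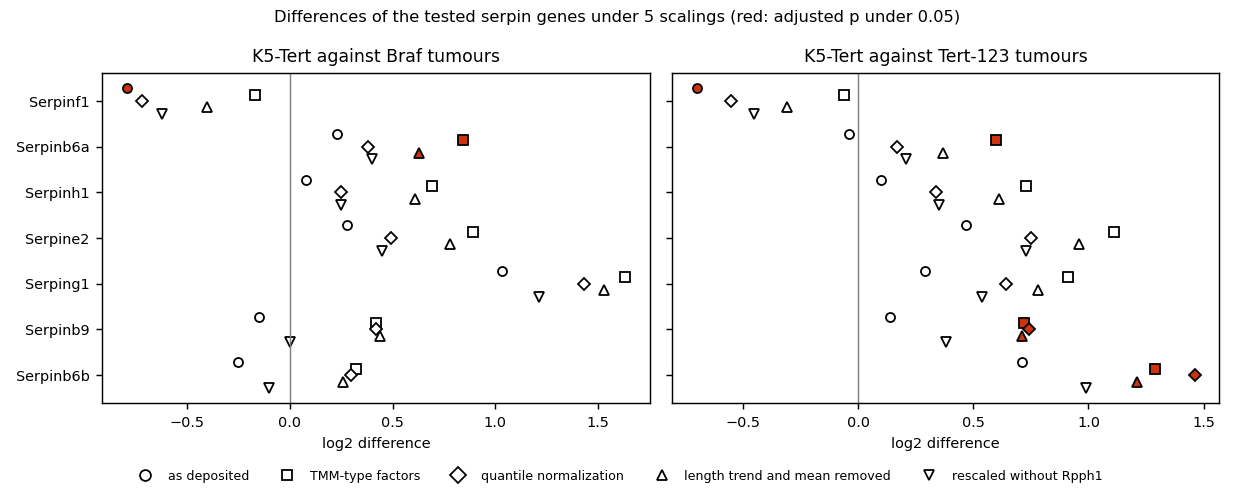
Points are the log2 differences of 7 tested serpins under 5 scalings (symbols), for K5-Tert against Braf and against Tert-123 tumours, with red for an adjusted p under 0.05. Serpinf1 is red as deposited alone, at -0.79 and -0.70, while Serpinb6a turns red under factors of the TMM type, at 0.84 and 0.60, beside further red points for Serpinb6a, Serpinb6b and Serpinb9.

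Serpins below the limit for testing were mostly at a few TPM or less, and the depth behind these values is unknown. The 5 with the highest means were Serpina3n, Serpinb8, Serpinb1a, Serpinb2 and Serpinb11. Serpina3n, an acute phase serpin whose human counterpart is alpha-1-antichymotrypsin, was at 1.56 to 23.7 TPM in tumours and at 5.11, 0 and 3.47 TPM in the K5-Tert, the Tert-123C>T and the wild-type pool. Serpinb1a, an inhibitor of neutrophil elastase, was at 0.409 to 20.5 TPM in tumours and at 0, 12.7 and 1.76 TPM in the same pools. Both peaked in Tert-123 tumour 4, and they were the 2 genes below the limit that reached 10 TPM anywhere. Serpinb2, or plasminogen activator inhibitor 2, was also highest in Tert-123 tumour 4 and ranged from 0.882 to 8.17 TPM in tumours beside 1.64 to 3.31 TPM in pools. Serpinb8, which can inhibit furin, was at 1 TPM or more in all 18 libraries, between 1.45 and 9.76 TPM.

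Serpinb11 was at 0.437 to 6.74 TPM in tumours, with a median of 2.21, and at 0, 1.13 and 0 TPM in the K5-Tert, the Tert-123C>T and the wild-type pool. Of the 15 tumours, 13 were above every pool. Serpina3j was at 0.288 TPM or less in tumours, at 0 in 10 of them, and at 2.86, 3.87 and 0 TPM in the pools. With no limit on the level, Serpinb11 differed with the Braf mutation by 1.39 (limma adjusted p = 0.04705) and Serpina3j by -1.37 (limma adjusted p = 0.001054), beside 7.88% of all genes called higher and 6.27% lower at that setting. Serpina3i was at 1.82 TPM or less in every library and at 0.203 TPM or less in all 4 K5-Tert tumours.

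Of the remaining clade A genes, Serpina3h, Serpina3g, Serpina3a, Serpina3f, Serpina1a, Serpina1b, Serpina1c, Serpina1d, Serpina1e, Serpina6, Serpina9, Serpina10 and Serpina11 reached 1 TPM in some library, and their highest value was 3.51 TPM, for Serpina10 in Tert-123 tumour 3. The Serpina1 genes encode mouse alpha-1-antitrypsins and Serpina6 encodes corticosteroid-binding globulin. Serpina3h is a pseudogene in RefSeq. The Serpina1 and the Serpina3 genes are sets of related copies whose identity was not examined here, and reads may have been divided among them. In clade B, Serpinb1c, Serpinb3c, Serpinb5 (maspin), Serpinb6c, Serpinb7, Serpinb9b, Serpinb10, Serpinb12 and Serpinb13 reached 1 TPM. Serpinb12 was at 5.87 TPM in Tert-123 tumour 4, at 2.77 TPM in Tert-123 tumour 7, at 0.382 TPM or less in the other 13 tumours, and at 0 in all 3 pools. In other clades, Serpinc1 (antithrombin) reached 1.47 TPM, Serpine3 1.90 TPM, Serpinf2 (alpha-2-antiplasmin) 1.53 TPM, Serpini1 (neuroserpin) 5.18 TPM and Serpini2 2.99 TPM. Serpine3, Serpini1, Serpina9 and Serpina11 were all highest in Tert-123 tumour 4. Serpind1 (heparin cofactor II), Serpina7 and Serpina5 (protein C inhibitor) were among the 21 that stayed under 1 TPM.

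More serpins were listed above 0 in Braf tumours than in pools. The count was 49, 54, 52 and 43 of 63 in Braf tumours, 34 to 53 in Tert-123 tumours, 33, 24, 35 and 18 in K5-Tert tumours, and 17, 24 and 21 in the K5-Tert, the Tert-123C>T and the wild-type pool. The count over all entries of the table differed in the same direction. It was 19592, 20216, 20261 and 18621 in Braf tumours, and 12757, 14123 and 13657 in the same pools. It was 13652 in K5-Tert tumour 4 and highest, at 20374, in Tert-123 tumour 2. The higher serpin counts are thus not particular to serpins. The part of depth in these counts was not tested.

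The targets and partners of serpins were read from lists of named genes, which were chosen with earlier results of these data known. Each count with the Braf mutation below stands beside 15.4% of all genes called higher and 10% called lower, with a median of 0.07. Counts for K5-Tert stand beside 0.626% called higher and 21.2% lower against Braf tumours, and 0.805% and 28.5% against Tert-123 tumours, with a median of -0.47 in both. Differences of list genes for K5-Tert are given on the deposited scale alone, and their dependence on the scaling is not given. With 3 pools and a limit of 10 TPM in 4 libraries, a gene high in pools alone could not be tested, and 14 of the 35 list genes called higher were under 10 TPM in every pool. For these 14 the limit itself favours a higher call, so those named are given by their levels with no test. They stay in the counts of genes called higher. Other list genes were under 10 TPM in some pools, among them Lrp1, Plgrkt, Ctsw, Slpi and Col1a1. They reached the limit mainly through tumours, so it can favour a higher call for them too.

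Of 23 genes of plasminogen activation 10 were tested, and 6 were called higher and 2 lower with the Braf mutation (median 1.41). Plat, tissue plasminogen activator and a target of Serpine2, was the 1 of the 6 under 10 TPM in every pool, at 3.54 to 6.22 TPM there and at 8.02 to 54.2 TPM in tumours. Lrp1, the receptor that clears serpin-protease complexes, rose by 2.54 (SE 0.48, limma adjusted p = 0.0003438), Plgrkt, a plasminogen receptor, by 1.62 (0.001331) and Anxa2, which binds plasminogen and Plat, by 1.21 (0.001715). Each of Lrp1, Plgrkt and Anxa2 had a pool inside the tumour range. For Lrp1 the Tert-123C>T pool was at 28.4 TPM, beside 20.4 to 189 TPM in tumours. For Plgrkt the Tert-123C>T and wild-type pools were at 17.8 and 19.6 TPM, beside 13.3 to 63.0 TPM in tumours. For Anxa2 the K5-Tert pool was at 460 TPM, beside 368 to 948 TPM in tumours. Plasminogen itself (Plg) was at most 2.38 TPM in tumours. No gene of this list passed among tumours.

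Of 15 coagulation genes 5 were tested, and 1 was called higher and 2 lower with the Braf mutation (median 0.25). Tissue factor (F3), which starts clotting with factor VII, fell by 3.86 (limma adjusted p = 1.385e-08), from 88.4 to 150 TPM in pools to 2.26 to 13.2 TPM in tumours. Thrombomodulin (Thbd), known from endothelium, fell by 2.41 (0.002152). Its K5-Tert pool, at 10.9 TPM, lay inside the tumour range of 1.36 to 15.9 TPM. It was highest, at 74.8 TPM, in the Tert-123C>T pool, which also had the highest endothelial sum, 904 TPM. The part of those cells was not tested. Factor VII (F7) was at 0 to 0.511 TPM in pools and at 2.51 to 83.1 TPM in tumours. Prothrombin (F2), the precursor of the Serpine2 target thrombin, was at most 1.83 TPM in tumours. No gene of this list passed between tumour groups.

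Of 28 epithelial and membrane serine proteases 10 were tested, and 3 were called higher, 2 of them under 10 TPM in every pool, and 1 lower with the Braf mutation (median 0.26). Tmprss2 fell by 1.60 (limma adjusted p = 0.000594), and the proprotein convertase Furin rose by 0.76 (0.0405). For Furin, the K5-Tert and Tert-123C>T pools, at 39.9 and 44.7 TPM, lay inside the tumour range of 30.9 to 96.6 TPM. Prss22 was at 0 in all pools and at 3.79 to 38.5 TPM in tumours, and Htra2 was at 2.09 to 7.01 TPM in pools and at 4.66 to 15.7 TPM in tumours. Between K5-Tert and Tert-123 tumours, Pcsk5 fell by 0.98 (0.02362), the single call of this list among tumour groups.

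Of 20 leukocyte serine proteases only Gzme, Mcpt8 and Mcpt1 reached the limit, through the tumours alone, so their direction was fixed by it. Gzme, a granzyme, was at 93.9 to 610 TPM in tumours, at 4.75 TPM in the K5-Tert pool and at 0 in the other pools. Mcpt8 was at 19.0 to 171 TPM in tumours and at 0, 5.74 and 0 TPM in the pools, and Mcpt1 was at 2.64 TPM or more in tumours and at 0 in all pools. The best-known targets of clade B serpins were low in tumours: Gzmb was at most 4.76 TPM, Ctsg at most 3.45 TPM, Prtn3 at most 3.14 TPM and Elane at most 0.615 TPM. In the Tert-123C>T pool Gzmb was at 22.2 TPM and Gzma at 17.7 TPM, beside a T and NK cell marker sum of 221 TPM that holds both genes. Of 11 lysosomal cysteine proteases 10 were tested, and 6 were called higher, 2 of them under 10 TPM in every pool, and 0 lower (median 1.01). Ctsw rose by 2.64 (limma adjusted p = 0.000367), Ctsb by 0.88 (0.009445) and Ctss by 2.20 (0.0106), but each had a pool inside the tumour range. For Ctsw and Ctss it was the Tert-123C>T pool, at 24.3 and 91.6 TPM, and for Ctsb the K5-Tert pool, at 157 TPM. Ctsw was at 0 in the other pools. Ctsc was at 5.46 to 8.14 TPM in pools and at 12.7 to 48.5 TPM in tumours. Neither of these lists had a call between tumour groups.

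Of 40 other protease inhibitors 39 were in the table and 12 were tested, and 4 were called higher and 1 lower with the Braf mutation (median 0.65). Timp1, an inhibitor of matrix metalloproteinases and the 1 of the 4 under 10 TPM in every pool, was at 3.94 to 5.01 TPM there and at 36.4 to 316 TPM in tumours. Timp3 fell by 2.49 (SE 0.35, limma adjusted p = 1.511e-05), from 329 to 407 TPM in pools to 31.3 to 154 TPM in tumours. Wfdc2 rose by 1.54 (9.025e-05) and Slpi, secretory leukocyte peptidase inhibitor, by 2.83 (0.004716). For Slpi, the wild-type pool at 12.1 TPM lay inside the tumour range of 3.25 to 161 TPM. No gene of this list passed between tumour groups.

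Of 26 collagen folding partners of Serpinh1 19 were tested, and 9 were called higher, 3 of them under 10 TPM in every pool, and 1 lower with the Braf mutation (median 0.55), while Serpinh1 itself did not pass. P3h4 rose by 1.31 (SE 0.22, limma adjusted p = 7.994e-05) and Col1a1, also one of the fibroblast markers, by 3.55 (0.001905). For Col1a1, the Tert-123C>T pool at 36.1 TPM lay inside the tumour range of 26.1 to 785 TPM. Fkbp10, a collagen prolyl isomerase, was at 0 to 6.68 TPM in pools and at 19.1 to 35.5 TPM in tumours, and the procollagen protease Bmp1 at 4.91 to 9.81 TPM and at 14.4 to 58.8 TPM. Mia3, which helps collagen leave the endoplasmic reticulum, fell in K5-Tert tumours by 0.88 against Braf tumours (0.04807) and by 0.92 against Tert-123 tumours (0.02042), the only calls of this list among tumours.

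Of 16 regulators of serpin genes 12 were tested, and 3 were called higher, 1 of them under 10 TPM in every pool, and 4 lower with the Braf mutation (median -0.18). Egr1 fell by 3.13 (limma adjusted p = 2.301e-06), Klf4 by 2.53 (3.458e-06) and Hif1a by 2.15 (6.409e-06), and Tgfb3 was at 1.49 to 7.14 TPM in pools and at 8.79 to 50.3 TPM in tumours. In K5-Tert tumours the cytokine gene Il1b rose by 3.89 against Braf tumours (0.002351) and by 3.61 against Tert-123 tumours (0.00142), from 6.79 TPM ± 2.42 (SD, n = 4) in Braf tumours to 173 ± 193 (n = 4). Smad3 and Stat3 fell by 0.91 (0.02826) and 0.71 (0.0365) between K5-Tert and Tert-123 tumours. Of 5 carriers of thyroid hormone and steroids 1 was tested, and it did not pass in any comparison. No gene of any list passed between Tert-123 and Braf tumours.

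Gene position was read from RefSeq for the 62 serpins with a placed protein-coding gene. Most mouse serpins lie in clusters: 52 were next to another serpin, with 23 genes on chromosome 12, 15 on chromosome 13 and 14 on chromosome 1. Of the 52 genes next to another serpin 4 were among the 8 tested, and of the 10 that stand apart 4 were, among them Serpine2, Serping1 and Serpinh1. Serpinf1 lies between Smyd4 and Serpinf2, and Serpinf2 was at 1.53 TPM or less in all libraries where Serpinf1 was at 10.3 TPM or more. Serpinb6b and Serpinb9 are adjacent.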

How the data were processed

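RNA from 9000 to 20000 sorted YFP-positive cells per sample was amplified for 14 cycles and read as pairs of 100 bp, per the labels' protocols. The authors deposited a table named normalized counts, with 23652 entries by 18 libraries. Its values were taken as TPM because each of the authors' columns sums to 1000000. No source used here gives the tools, genome build or annotation. No counts were used, so the depth per sample is unknown and no interval for counting error can be given. The 26 entries with date-like names were left out (at most 0.0455% of TPM). Of 23626 entries, 23144 matched a GENCODE symbol, which gave transcript lengths. Promoters and gene order came from RefSeq (GRCm38.p6).

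Groups came from the genotype labels. Libraries were numbered in series order, and these numbers pair nothing. Genes at 10 TPM or more in at least 4 of the 18 libraries (7825) entered limma 3.58.1 (R 4.3.3, trend on) on the log2(TPM + 1) scale. One model held the 15 tumours (12 residual degrees of freedom). Another held all 18 libraries with additive terms for the Braf mutation and each Tert allele (14), where each pool is a single library. Tests were two-sided, with Benjamini-Hochberg adjustment over all genes and a threshold of 0.05. The rule named serpins past the threshold, the 6 with the highest mean, all others at 1 TPM in any library, and up to 4 called genes of each partner list, with Tert and Braf; other genes were named after their values were seen. A gene that the rule names is not reported here; it stays in every fit and count. The members, lists and tests were chosen with earlier results of these data known. The methods were tested on simulated data with independent noise for each gene. No shift of a whole library was simulated, so those data do not bear on the K5-Tert shift over all genes. Alternatives were pseudocounts of 0.5 and 5, limits of 1 and 50 TPM or none, 4 scalings, library weights, fits of only the groups compared, each library left out, K5-Tert tumours 2 and 4 left out, and, added after the marker sums were seen, Tert-123 tumour 4 and the Tert-123C>T pool left out.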

Additional observations from a re-analysis of the deposited data

How the results depend on the processing

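The Serpinf1 and Serpine2 differences with the Braf mutation passed in all 31 alternatives. The K5-Tert calls for Serpinf1 did not hold throughout, and their cause was not tested. They were kept in 13 of 28 alternatives against Braf tumours and in 17 of 28 against Tert-123 tumours, with the sign negative in all.

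For K5-Tert against Braf tumours, the count of serpins called went from 1 to 2 with a limit of 1 TPM or with library weights. The count went to 0 with a limit of 50 TPM, no limit, quantile normalization, rescaling without Rpph1, or only the groups compared. It was also 0 without K5-Tert tumours 2 and 4, and it ran from 0 to 1 with single libraries left out. Factors of the TMM type and removal of the length trend each gave 1 call, for Serpinb6a upward, beside 7.92% and 4.72% of all genes called higher. The 1711 calls over all genes became 183 with a limit of 50 TPM, where fewer genes were tested, 957 with factors of the TMM type (620 higher, 337 lower), 745 with quantile normalization (218 and 527), 963 with the length trend removed (367 and 596), 515 with only the groups compared, 5005 with library weights and 24 without K5-Tert tumours 2 and 4. With single libraries left out the count ran from 412 to 3690, lowest without Braf tumour 3 and highest without K5-Tert tumour 1.

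For K5-Tert against Tert-123 tumours, the serpin count of 1 went to 0 with no limit, rescaling without Rpph1, only the groups compared, or without K5-Tert tumours 2 and 4. It went to 3, all higher, with factors of the TMM type, beside 10.3% of all genes called higher. Among them was Serpinb6a, whose sign turned to 0.60 (limma adjusted p = 0.02134). It went to 2, both higher, with quantile normalization and with the length trend removed, beside 3.18% and 5.15% of all genes called higher. Without Tert-123 tumour 4 and the Tert-123C>T pool it was 2 (1 higher, 1 lower), beside 0.984% and 29.0% of all genes. With single libraries left out it ran from 0 to 2. All-gene calls, 2293 of 7825 as reported, became 268 of 1749 with a limit of 50 TPM. They were 1119 with factors of the TMM type (807 higher, 312 lower) and 765 with quantile normalization (249 and 516). They were 1027 with the length trend removed (400 and 627) and 1216 with only the groups compared. They were 4769 with library weights and 26 without K5-Tert tumours 2 and 4. With single libraries left out they ran from 549 to 4146.

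For Tert-123 against Braf tumours the serpin count was 0 in every alternative, and the all-gene count was 1 with no limit and 1 with library weights and 0 with each library left out. For the Braf mutation, 2 of 8 serpins were called as reported, and 2 to 3 with single libraries left out. With no limit the count was 4 of 63 (3 higher, 1 lower), beside 7.88% of all genes called higher and 6.27% lower. All other calls were upward, and brackets give the share of all genes called higher. The count was 3 with a limit of 1 TPM (14.2%), factors of the TMM type (23.6%) or quantile normalization (16.9%). It was also 3 without Tert-123 tumour 4 and the Tert-123C>T pool (11.7%). Rescaling without Rpph1 gave 4 of 12 (20.9%) and library weights 5 of 8 (42.5%). All-gene calls were 1991 of 7825 as reported. They became 3597 of 14711 with a limit of 1 TPM, 628 of 1749 with 50 TPM and 3211 of 22693 with no limit. They were 3076 with factors of the TMM type and 3813 of 10819 with rescaling without Rpph1. They were 3245 of 7773 with the length trend removed (1281 higher, 1964 lower) and 4389 with library weights. With single libraries left out they ran from 1438 to 2295. No paired analysis was possible because the labels give no replicate numbers. Unknown depth limits every statement on serpins under a few TPM.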
